A study of Rattus norvegicus with 22 samples.

Results

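The genes described here are 35 genes of glycolysis and of the response to low oxygen, measured in engineered rat heart tissue that was stretched, treated with the p38 MAP kinase inhibitor BIRB796, or both. They were taken by gene name from a list drawn up with earlier results of these data known: glucose transporters, the enzymes from hexokinase to lactate dehydrogenase, lactate transporters, the pyruvate dehydrogenase kinase Pdk1, Hif1a with 2 of its prolyl hydroxylases, and 4 targets of hypoxia-inducible factor. All 35 of 35 names were found on the array, on 51 of its 30367 probes, and all 35 passed the filter on dim probes that left 23479 genes. The probe used for each member was well above background on all 22 arrays, and none was saturated.

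The tissues were cylinders of cells in matrix, made from the embryonic ventricle of Sprague Dawley rats at gestational day 14.5, held at both ends by anchors and cultured for 7 days. The control group (7 arrays) had neither treatment. The stretch group (7 arrays) received uniaxial cyclic stretch at 0.5 Hz and 5% elongation from culture day 5, for 48 h. The BIRB796 group (4 arrays) received 10 µM BIRB796 from day 5 for 48 h without stretch, and the stretch with BIRB796 group (4 arrays) received both. BIRB796 (doramapimod) is a small molecule that blocks p38 MAP kinases, and it was given to the whole tissue. The labels call the samples biological replicates and name no solvent control.

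Glycolysis turns glucose into pyruvate in the cytosol and yields ATP without oxygen. When oxygen falls, the prolyl hydroxylases Egln1 and Egln3 no longer mark HIF-1alpha (Hif1a) for destruction, and the factor binds short DNA elements near glucose transporter, glycolytic and lactate export genes. The embryonic heart relies on glycolysis more than the adult heart does, and muscle forms of some enzymes (Pgam2, Eno3, Slc2a4) are switched on as muscle matures.

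The arrays fell into 3 scan sessions. Session 1 held control and stretch replicates 1 to 3, with the same number of both groups on 1 slide. In session 2 there were only the other stretch arrays. Both BIRB796 groups were scanned in session 3, together with control replicates 4 to 7. Per array, the signal's 75th percentile was between 1870 and 3062 intensity units in session 1, 509.6 and 1429 in session 2, and 1237 and 2135 in session 3. Stretch replicates 4 and 5 differed by less than the noise between repeated spots (0.55 of it) and were counted as 1 sample, so that 21 samples entered the fits. All 15 cardiomyocyte markers were above background on every array. All 7 smooth muscle markers, 9 of 10 fibroblast markers, 9 of 10 macrophage markers and 7 of 10 endothelial markers were too. In such bulk samples, fewer cells of a type and less RNA per cell cannot be told apart.

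Levels below are log2 signals relative to the 75th percentile of the array, so a difference of 1 is a doubling, and levels of different genes are not compared. A difference is called when its adjusted p from limma (Benjamini-Hochberg over all genes) is under 0.05. The fit on all samples had a term for scan session, so groups were compared within a session or, where they shared none, through their own controls.

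Most of the differences that passed a test among the members lay between stretch with BIRB796 and control, both measured in session 3. Of the 35 members, 33 were lower with both treatments and 2 (Pfkfb3 and Pfkfb4, which set the level of an activator of phosphofructokinase) were higher. Their median log2 difference was -0.25, against 0.04 over all genes, of which 43.8% were lower. In the fit on all samples none of the 35 passed the threshold, where 0.098% of all genes did (5 higher, 18 lower). Unadjusted p-values under 0.05 were found for 5 members, all lower, and for 5.24% of all genes on that side. The smallest adjusted p of a member was 0.136, for Slc16a3.

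The 3 session 3 groups were also fitted alone. That fit leaves out the session 1 samples and the widely scattered session 2 arrays, and leaves the log2 differences as they were. There 7 members fell with stretch and BIRB796 and none rose, where 4.53% of all genes fell and 3.13% rose (7.66% together). The 7 were the glucose transporters Slc2a1 and Slc2a4, the enzymes Aldoc, Pgam2 and Eno3, the lactate exporter Slc16a3 and the hydroxylase Egln3. Their adjusted p-values in that limma fit lay between 0.0134 and 0.03. When only session 2 was left out of the fit on all samples, Pgam2, Slc16a3 and Slc2a1 were the members called. That setting was chosen after seeing the data. The share of all genes it called is not given here, so these calls cannot be set against it. The calls in session 3 alone rested on the control arrays. Control replicates 5 and 6 shared a slide and differed by 1.17 times the spot noise, and with both averaged into 1 sample none of the 7 was called, their adjusted p-values from limma lying between 0.0503 and 0.0932. Control replicates 4 and 5, on different slides, were nearly as close, at 1.245 times the spot noise. Leaving out control replicate 5, 6 or 4 left 0, 1 and 2 of the members called, leaving out control replicate 7 gave 12, and leaving out replicate 4 of both treatments gave 4. Calls over all genes moved too, from 730 higher and 1055 lower to 57 and 129 with the controls averaged. They were 34 and 72, 63 and 162, and 75 and 165 without control replicate 5, 6 or 4. Without control replicate 7 they were 1871 and 1915, and without replicate 4 of both treatments 197 and 384.

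**Figure D1:**
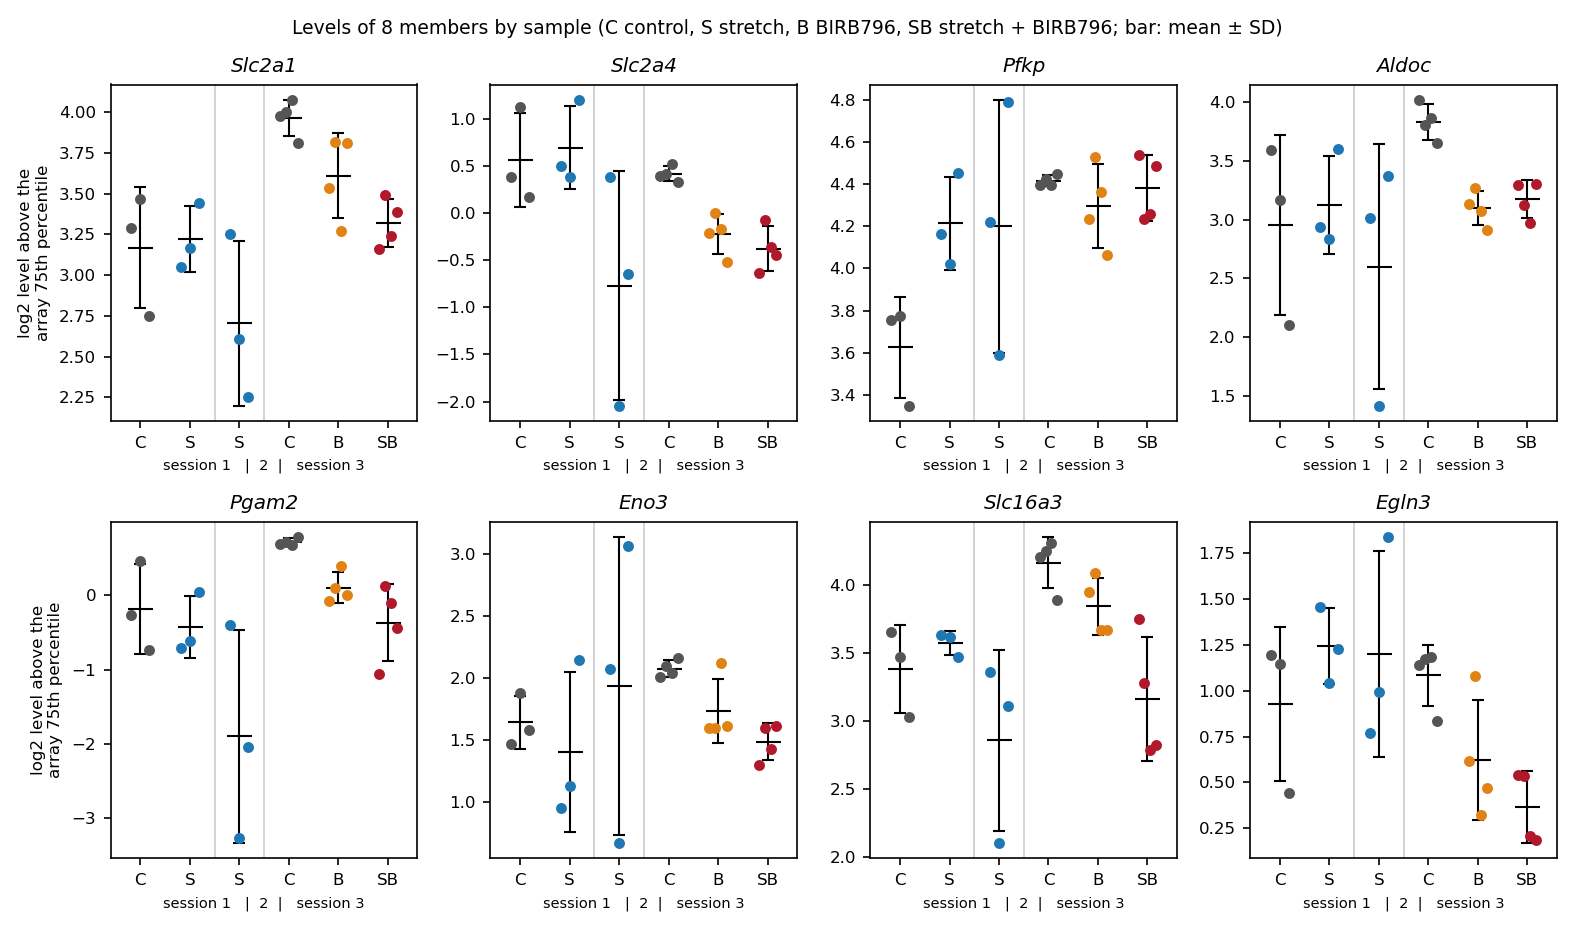
Log2 level above the array's 75th percentile (vertical axis) of 8 members in each sample, by group and scan session (horizontal axis; C control, S stretch, B BIRB796, SB stretch with BIRB796). Points are samples, bars are the mean and SD of 3 or 4 samples. In session 3 the SB points of Slc2a1, Slc2a4, Aldoc, Pgam2, Eno3, Slc16a3 and Egln3 all lie below the control points, while those of Pfkp lie on both sides of them.

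The glucose transporters among the members are Slc2a1 (GLUT1), the main carrier of embryonic and growing cells, and Slc2a4 (GLUT4), the insulin-responsive carrier of muscle. Slc2a1 read 3.98, 4.00, 4.07 and 3.81 in the session 3 controls, 3.54, 3.82, 3.27 and 3.81 with BIRB796, and 3.16, 3.49, 3.24 and 3.39 with stretch and BIRB796. All samples with both treatments lay below all controls, and BIRB796 replicates 2 and 4 reached the lowest control. The difference of both treatments from control was -0.65 ± 0.20 (SE) in the fit on all samples, a level 1.57-fold lower (adjusted p = 0.243), and had an adjusted p of 0.0205 in session 3 alone.

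Slc2a4 read 0.39, 0.42, 0.52 and 0.33 in those controls, -0.21, 0.0013, -0.17 and -0.52 with BIRB796, and -0.64, -0.07, -0.36 and -0.44 with both. Neither treated group overlapped the controls. Stretch with BIRB796 was lower than control by 1.73-fold (log2 -0.79 ± 0.36, adjusted p = 0.484 on all samples and 0.0134 in session 3 alone, limma). Hk1 and Hk2, the hexokinases that trap glucose in the cell, differed by -0.13 ± 0.21 and -0.11 ± 0.20, and Gpi, the next enzyme, by -0.27 ± 0.21.

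Phosphofructokinase commits sugar to glycolysis, and its genes stood nearest to no difference. The 7 members of this step (Pfkm, Pfkl, Pfkp and Pfkfb1 to Pfkfb4) had a median difference of -0.04 between both treatments and control, from -0.34 for the liver form Pfkl to 0.10 for Pfkfb3. None was called in session 3 alone. The interval for the platelet form Pfkp ran from -0.46 to 0.38, and that for the muscle form Pfkm from -0.37 to 0.36, so changes up to those sizes could not be told from 0.

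All 11 members of the steps from aldolase to pyruvate kinase were lower with both treatments, by a median of -0.24. The largest difference was that of Pgam2, the muscle phosphoglycerate mutase. Its level was 0.69, 0.72, 0.68 and 0.78 in the controls, -0.08, 0.10, 0.40 and 0.0 with BIRB796 (in replicate 4 this probe was itself the 75th percentile), and -1.06, 0.12, -0.10 and -0.44 with both treatments. The controls had an SD of 0.05 (n = 4), the treated samples were all below them, and replicate 1 of both treatments was lowest. The level was 2.12-fold lower with both than in control (log2 -1.09 ± 0.43, adjusted p = 0.393 on all samples and 0.0199 in session 3 alone, limma). The wider tissue form Pgam1 differed by -0.13 ± 0.22.

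Aldoc, an aldolase best known from brain and induced by low oxygen, read 4.02, 3.80, 3.86 and 3.65 in the controls, 3.14, 3.27, 3.07 and 2.91 with BIRB796, and 3.30, 3.12, 2.97 and 3.31 with both. Both treated groups lay together below the controls. The difference from control was -0.66 ± 0.34 with both treatments (adjusted p = 0.596 on all samples and 0.0135 in session 3 alone, limma), while the muscle aldolase Aldoa stood at -0.02 ± 0.28.

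Eno3, the muscle enolase, read 2.01, 2.10, 2.05 and 2.16 in the controls, 1.59, 1.60, 2.12 and 1.62 with BIRB796, and 1.30, 1.60, 1.43 and 1.61 with both. Only BIRB796 replicate 3 reached the controls. Its difference with both treatments was -0.59 ± 0.35 (adjusted p = 0.695 on all samples and 0.0237 in session 3 alone, limma), against -0.11 ± 0.20 for Eno1 and -0.14 ± 0.15 for Eno2. A second probe of Eno2 gave 0.12 ± 0.21, the one case among 15 further probes where the sign differed. Tpi1, Gapdh, Pgk1 and Pkm, which carry the middle and last steps, were lower by 0.48, 0.24, 0.24 and 0.25 on the log2 scale and were not called in either fit.

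Slc16a3 (MCT4), which exports lactate from cells that run on glycolysis, was 4.20, 4.25, 4.31 and 3.89 in the controls and 3.94, 4.08, 3.67 and 3.67 with BIRB796. With both treatments it was 3.75, 3.28, 2.79 and 2.83, all below the controls, with replicates 3 and 4 lowest, while BIRB796 replicates 1 and 2 lay among the controls. Stretch with BIRB796 was 2.00-fold lower than control (95% interval of the log2 difference -1.53 to -0.47 and adjusted p = 0.136 on all samples, -1.45 to -0.55 and 0.0219 in session 3 alone, limma). In the fit on all samples it passed only without stretch replicate 6 (adjusted p = 0.0494) or without session 2 (0.0194). Slc16a1 (MCT1), the carrier for lactate uptake, differed by -0.22 ± 0.35. Ldha and Ldhb, the subunits of lactate dehydrogenase, differed by -0.23 ± 0.20 and -0.11 ± 0.30, and Pdk1, which inhibits pyruvate dehydrogenase in the mitochondrion, by -0.30 ± 0.17.

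Of the oxygen sensing genes, Egln3 (PHD3), itself a target of HIF, read 1.14, 1.17, 1.18 and 0.84 in the controls, 0.62, 1.08, 0.32 and 0.47 with BIRB796, and 0.54, 0.53, 0.21 and 0.18 with both. The samples with both treatments did not overlap the controls, and BIRB796 replicate 2 lay among the controls. The level was 1.64-fold lower than control (log2 -0.72 ± 0.23, adjusted p = 0.257 on all samples and 0.03 in session 3 alone, limma). Egln1 (PHD2), the main oxygen sensor, differed by -0.23 ± 0.13 and Hif1a by -0.33 ± 0.41, with an interval from -1.19 to 0.53. The 4 other HIF targets were all lower. Bnip3, a mitophagy receptor, differed by -0.33 ± 0.19, the peptide hormone gene Adm by -0.52 ± 0.42, the endothelial growth factor Vegfa by -0.39 ± 0.25, and the stress gene Ndrg1 by -0.37 ± 0.29.

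In session 3, 15 of the 35 members had all samples with both treatments below all controls, where 8.4% of all genes did, and none had them all above (8.66% of all genes). On slide 8, which held control replicate 7 and replicates 2 and 3 of both treatments, 33 members were lower with both, by a median of -0.21. On slide 6, with 1 array of each group, 26 were lower, by a median of -0.13. Slc2a1, Slc2a4, Aldoc, Pgam2, Eno3, Slc16a3 and Egln3 were among the 15. Their lower level on both slides was fixed by that, as the slides hold some of the same arrays, and adds no support. With the array median in place of the 75th percentile, 31 of 35 members were lower than control, and with normexp and quantile normalization 32. Shares of all genes lower on these slides or under these scalings are not given here, so these counts cannot be set against them.

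**Figure D2:**
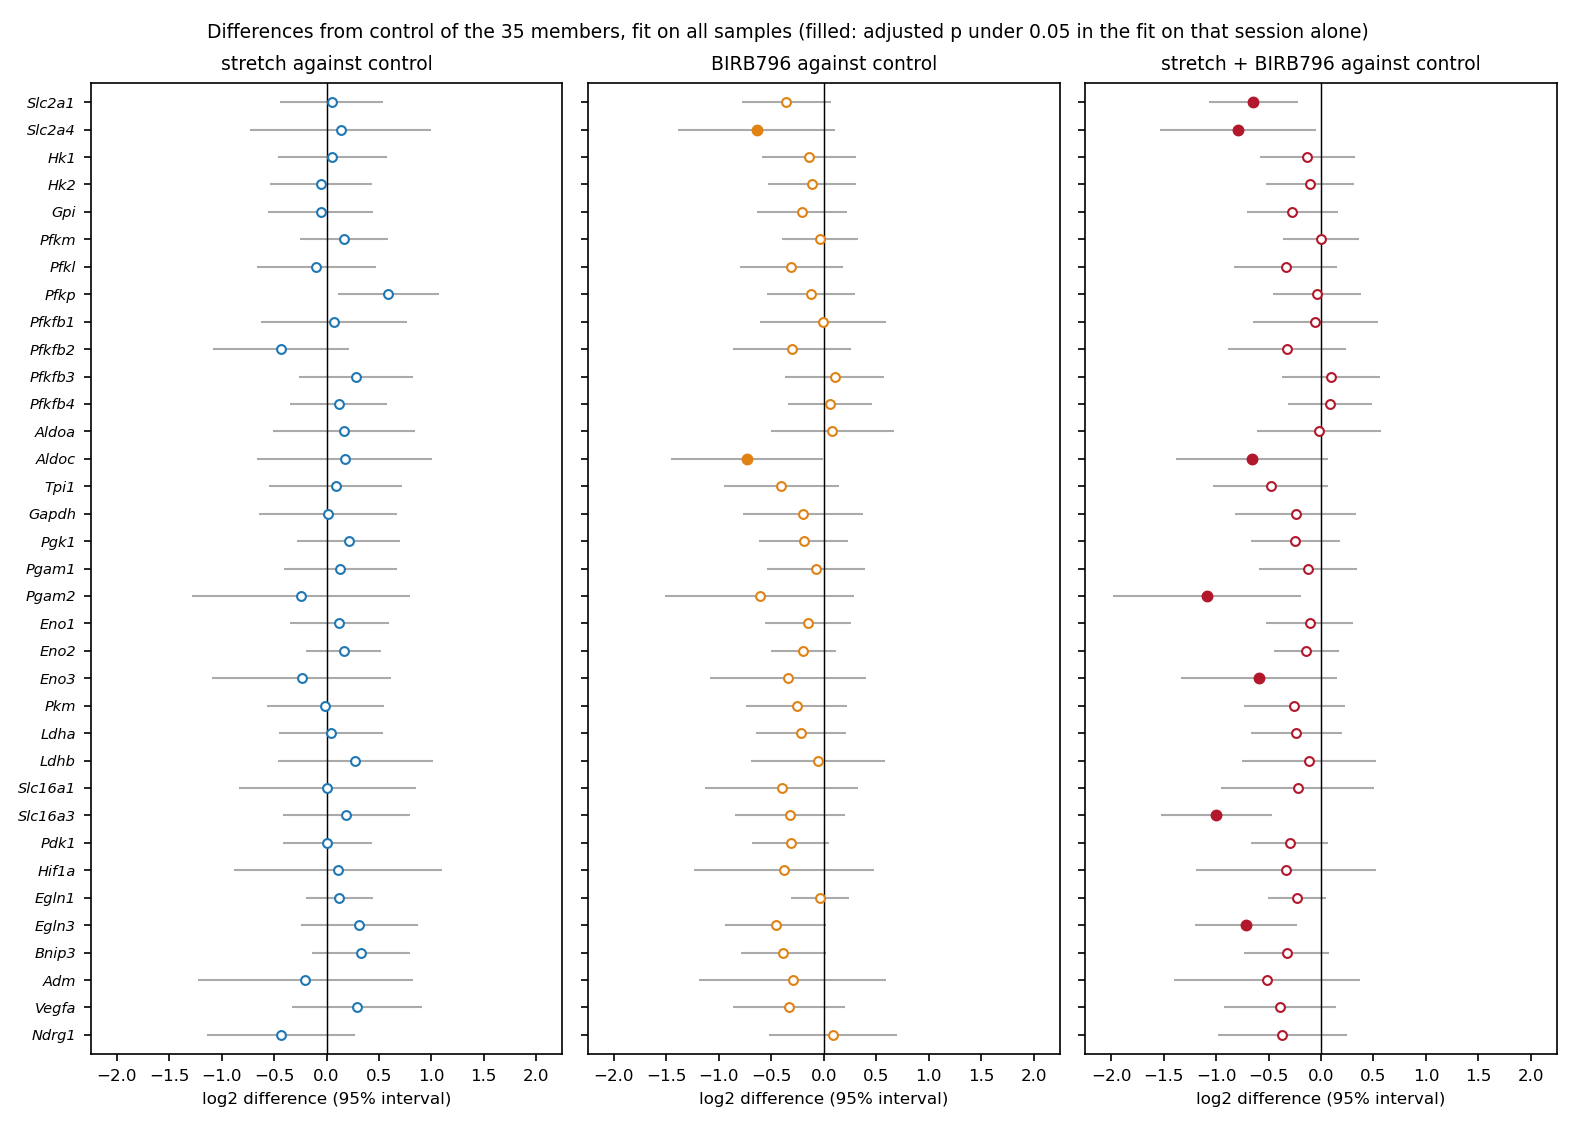
Log2 difference from control (horizontal axis) of each of the 35 members (vertical axis, in the order of the pathway) for stretch, BIRB796 and both, from the fit on all samples, with 95% intervals as grey lines. Filled points had an adjusted p under 0.05 in the fit on that session alone: none for stretch, 2 for BIRB796 and 7 for both.

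Markers of other cell types moved with the same groups. In the session 3 fit, 7 of 9 macrophage markers and 5 of 10 endothelial markers fell with both treatments and 5 of 7 smooth muscle markers rose, while 0 of 15 cardiomyocyte markers were called. Among all genes 4.53% fell and 3.13% rose there. The summed macrophage signal was 83.6 to 182.5 times the array's 75th percentile in the controls and 68.7 to 79.5 with both treatments. The endothelial sum was 4.65 to 6.16 against 2.76 to 3.46, and the smooth muscle sum 52.7 to 71.0 against 84.9 to 140.3. The cardiomyocyte sum was 1496 to 2060 against 1621 to 1763. The fibroblast sum was 351 to 573.9 in the controls, 440 to 527.2 with BIRB796 and 522.6 to 584.3 with both, and these ranges overlapped. With BIRB796 alone the ranges were 87.2 to 112.3 for macrophages, 3.52 to 4.17 for endothelium, 82.0 to 114.7 for smooth muscle and 1446 to 1716 for cardiomyocytes. All 8 mesothelial markers were lower with both treatments (median -1.02, with Krt19 and Msln called) and with BIRB796 alone (median -1.30, with Krt19 called). Their sum was 10.68 to 16.59 in the controls, 4.92 to 11.3 with BIRB796 and 5.23 to 9.65 with both. The neural sum was 0.794 to 1.484 in the controls and 1.83 to 3.93 with both, while 6 of its 9 tested markers were lower (median -0.10) and Elavl4 was called lower. The part of cell composition in the lower glycolytic levels was not tested.

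Short core elements bound by HIF-1 were looked for in the promoters of the members, from 250 bases before to 50 after the start in RefSeq (GRCr8), where 32 of 35 members had an entry. The cores ACGTG and GCGTG were counted on both strands, so that CACGT and CACGC count too, and CACGTG holds the first core on both strands. Of the members matched, 17 held ACGTG, 13 held GCGTG and 20 held either. Among all 33469 promoters, 19.3%, 29.7% and 41.6% did. Some members had several entries, and over the 37 entries of members 45.9%, 37.8% and 56.8% held them. Of the 7 members called lower in session 3, 6 had an entry, and 2 of these, Slc2a1 and Aldoc, held a core. The 130 bases before the start are shown for these, for Slc16a3 and Egln3, which were called with no core in the window, and for Ldha and Bnip3, which hold cores and were not called. Capitals mark the cores.
Slc2a1 (chr5:138002392-138002521, plus strand): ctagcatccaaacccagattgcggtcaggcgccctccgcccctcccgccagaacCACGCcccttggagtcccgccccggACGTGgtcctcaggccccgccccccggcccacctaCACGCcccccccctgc
Aldoc (chr10:63715414-63715543, plus strand): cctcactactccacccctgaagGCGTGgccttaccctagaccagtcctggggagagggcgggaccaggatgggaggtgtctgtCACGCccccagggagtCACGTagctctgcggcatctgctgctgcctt
Slc16a3 (chr10:106712198-106712327, plus strand): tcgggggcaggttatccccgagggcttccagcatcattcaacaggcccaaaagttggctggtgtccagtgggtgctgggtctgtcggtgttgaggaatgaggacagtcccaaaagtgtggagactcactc
Egln3 (chr6:77411016-77411145, minus strand): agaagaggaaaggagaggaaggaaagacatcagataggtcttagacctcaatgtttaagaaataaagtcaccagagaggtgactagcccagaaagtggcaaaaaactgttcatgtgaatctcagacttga
Ldha (chr1:106507962-106508091, plus strand): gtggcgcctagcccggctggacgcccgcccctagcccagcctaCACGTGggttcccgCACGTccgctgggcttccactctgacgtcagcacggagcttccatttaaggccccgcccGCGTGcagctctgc
Bnip3 (chr1:203154963-203155092, minus strand): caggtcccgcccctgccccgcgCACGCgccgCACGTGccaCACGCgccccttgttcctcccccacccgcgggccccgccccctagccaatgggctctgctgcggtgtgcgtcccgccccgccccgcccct

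With BIRB796 alone most members were also below control. Against the same session 3 controls, 31 members were lower and 4 higher, with a median of -0.22, where 47.8% of all genes were lower and their median was 0.01. The comparison shares its controls with the one above. In the limma fit on all samples 0 of 35 members and 0% of all genes were called, with an unadjusted p under 0.05 for 1 member (Aldoc) and for 1544 genes. In session 3 alone 2 members fell, Aldoc and Slc2a4, where 0.974% of all genes fell and 1% rose (1.97% together). BIRB796 replicates 2, 3 and 4 lay on slide 9 with no control, and control replicates 5 and 6 on slide 7 with no treated array. With slide as a random block Aldoc alone was called, and the calls over all genes were 35 higher and 23 lower. With scaling to the array median the 233 higher and 227 lower calls of that fit became 281 and 126.

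Aldoc was 1.66-fold lower with BIRB796 than in control (log2 -0.73 ± 0.34, adjusted p = 0.744 on all samples and 0.0249 in session 3 alone, limma). Over the 22 settings of the session 3 fit the adjusted p of Aldoc from limma ran from 0.00367 to 0.0972, and it was called in 15. These settings include the first fit, the deposited table of the same arrays and fits that left out only a sample with both treatments. The last leave this log2 difference as it was, so the 15 are not independent checks. Slc2a4 was 1.56-fold lower (log2 -0.64 ± 0.36, adjusted p = 0.892 and 0.0421), and was called in 9 of 22 settings, with adjusted p-values from 0.0118 to 0.139. Both calls ended when control replicates 5 and 6 were averaged, or when control replicate 4, 5 or 6 or BIRB796 replicate 1, 2 or 4 was left out, while 5 members were called without control replicate 7. Without control replicate 7, calls over all genes rose to 1085 higher and 1247 lower. They fell to 26 and 28 without BIRB796 replicate 1, to 16 and 9 without replicate 4, and to 0 in the other settings that ended both calls. On slide 6 Aldoc was lower with BIRB796 than in control by 0.88 and Slc2a4 by 0.60 on the log2 scale. For both genes no BIRB796 sample overlapped the session 3 controls, so the direction on that slide was already fixed.

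By role, all 5 genes of glucose entry, 10 of 11 of the middle steps, all 5 of lactate and pyruvate handling, all 3 of oxygen sensing and 3 of 4 HIF targets were lower with BIRB796, with medians from -0.20 to -0.38. Of the 7 phosphofructokinase genes 5 were lower, with a median of -0.04. Bnip3 was 2.43, 2.78, 2.23 and 2.31 with BIRB796, against 2.85, 2.74, 2.81 and 2.90 in the controls. It overlapped them in replicate 2 alone and had the second smallest unadjusted p (difference -0.39 ± 0.19). Groups did not overlap for 6 members, all lower: Slc2a4, Gpi, Aldoc, Pgam2, Ldha and Slc16a1. Among all genes 5.29% were lower without overlap and 6.6% higher.

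**Figure D3:**
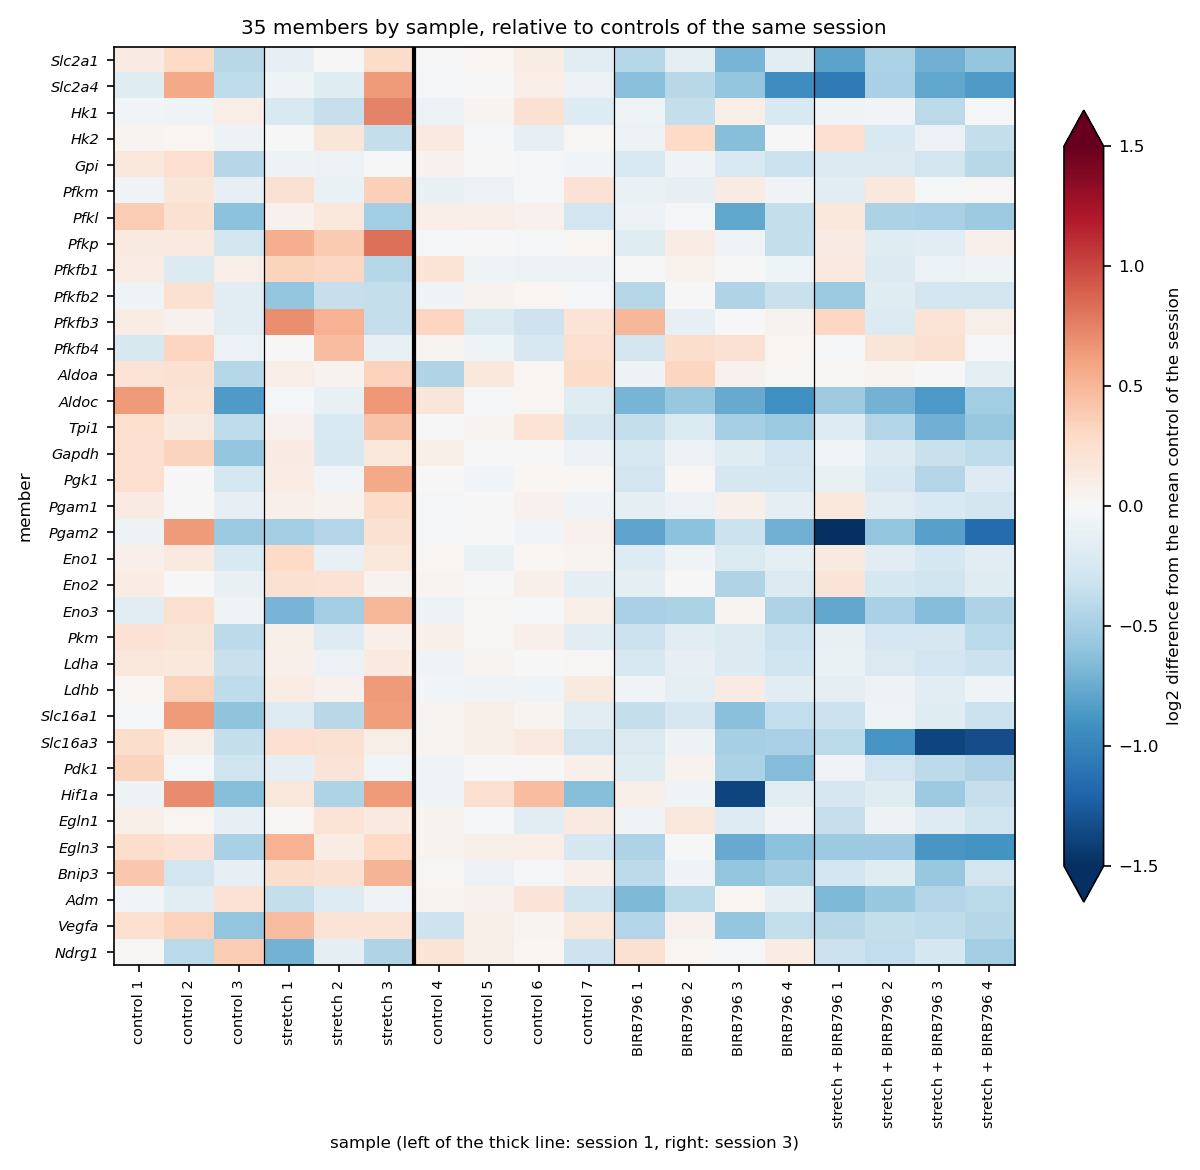
Each cell is the log2 level of 1 member (vertical axis) in 1 sample (horizontal axis) minus the mean of the controls of its session, with red higher and blue lower; session 2, which held no control, is left out. Blue runs across most rows of the BIRB796 and stretch with BIRB796 columns, and in session 1 control 3 is blue and stretch 3 red for most members.

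Whether stretch changed the members in the presence of BIRB796 was asked within session 3. Between stretch with BIRB796 and BIRB796 alone, 22 members were lower and 13 higher, with a median of -0.05 (0.01 over all genes, 47.3% lower). None was called in the limma fit on all samples, where 0% of all genes were and 426 had an unadjusted p under 0.05, nor in session 3 alone, where 0.0472% of all genes were. The largest difference was that of Slc16a3, 1.60-fold lower with stretch (log2 -0.68 ± 0.25, interval -1.21 to -0.15, adjusted p = 1.00). Ndrg1 read -1.72, -1.76, -1.66 and -1.93 with both treatments and -1.18, -1.38, -1.41 and -1.28 with BIRB796 alone. It was the only member whose groups did not overlap (2.51% of all genes were lower and 2.86% higher in this way), with a difference of -0.46 ± 0.29 and adjusted p-values of 1.00 on all samples and 0.277 in session 3 alone. Aldoc and Slc2a4, both lower with BIRB796, differed between these groups by 0.08 and -0.15 on the log2 scale.

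Stretch on its own could be set against control within session 1, where each of 3 slides held 1 sample of both groups. Of the 35 members 26 were higher and 9 lower with stretch, with a median of 0.11. Among all genes 62.7% were higher and the median was 0.08, so the members' balance was near that of the array. None of the members and 0% of all genes were called by limma, while 751 genes had an unadjusted p under 0.05. With the slide as a block in session 1 alone, no gene was called either. With the array median as the scale, 22 members were higher and 13 lower, and the share of all genes at that scale is not given here. The members' median turned to -0.06 without control replicate 3, to -0.18 without the session term and to -0.17 with sessions 2 and 3 as 1 set.

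Pfkp stood first among the members. It read 4.16, 4.02 and 4.46 in the stretched samples and 3.75, 3.77 and 3.35 in the controls of session 1, higher on all 3 slides and with no overlap, where 5.8% of all genes were higher in this way. The log2 difference with stretch was 0.59 ± 0.23 (interval 0.11 to 1.07, adjusted p = 1.00). In session 3 its level was 4.40 to 4.45 in the controls and 4.23 to 4.54 with stretch and BIRB796. Pfkfb2, whose product makes the activator of phosphofructokinase, was lower on all 3 slides and without overlap, as 3.51% of all genes were. Its difference was -0.44 ± 0.31, but its second probe gave 0.08 ± 0.35.

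Bnip3 had the second smallest p (0.33 ± 0.22). It read 2.22, 2.18 and 2.46 with stretch and 2.35, 1.67 and 1.83 in the controls, and the groups overlapped. Slide 3 set the direction for most members: 28 were higher with stretch on slide 3 (median 0.49), while 23 were lower on slide 1 (-0.10) and 23 on slide 2 (-0.17). The same counts were not taken over all genes, so a shift of a whole array cannot be told from a shift of the members. Only Pfkp and Eno2 were higher, and Pfkfb2 and Adm lower, on all 3. Control replicate 3 had the lowest level of its group for Ldha (6.05), Gpi (3.53) and Vegfa (2.11). Intervals were wide: that of Slc2a1 ran from -0.44 to 0.54, that of Ldha from -0.46 to 0.54 and that of Slc16a3 from -0.42 to 0.80.

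**Figure D4:**
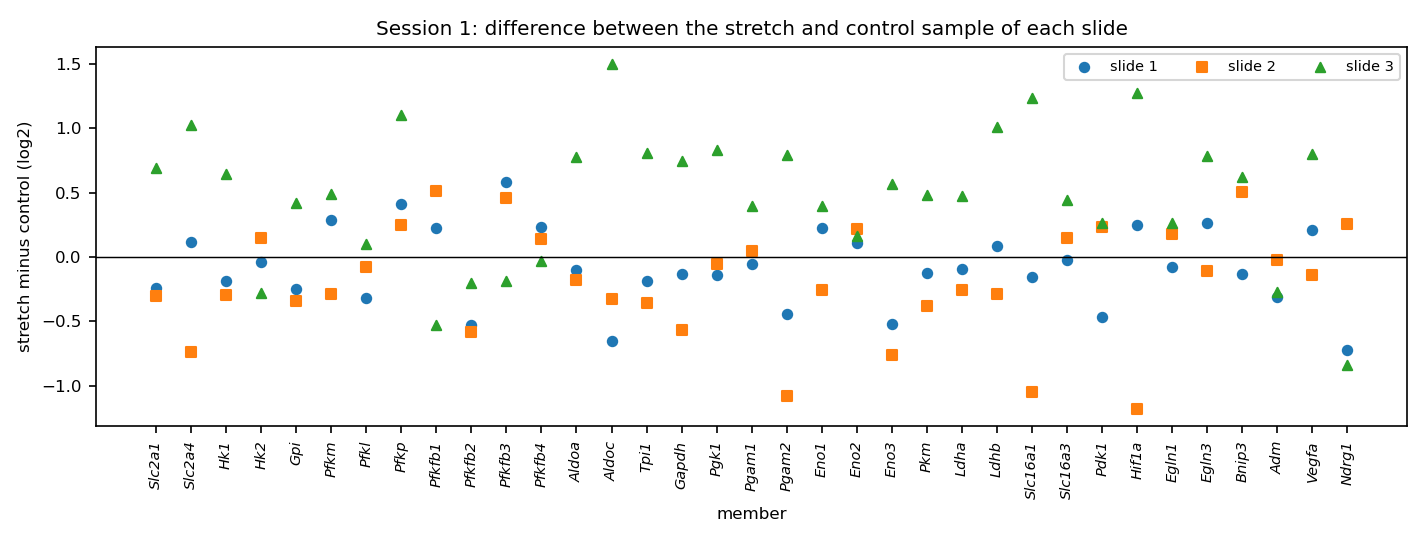
Log2 difference between the stretched and the control sample on each of the 3 slides of session 1 (vertical axis) for the 35 members (horizontal axis). Triangles, for slide 3, lie above 0 for 28 members, and circles and squares, for slides 1 and 2, lie below 0 for 23 each.

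The session 2 stretch samples had no control beside them and differed widely from each other. Pgam2 read -0.40, -3.26 and -2.04 there, Slc2a4 0.38, -2.04 and -0.65, and Adm 1.65, 1.98 and 4.65, in the order of replicates 4 with 5, 6 and 7. Replicate 6 was lowest in Pgam2, Slc2a4 and Slc16a3 (2.11), and replicate 7 highest in Adm, Gapdh (7.04) and Aldoa (6.41). The array of replicate 7 was the dimmest of all, with a 75th percentile of 509.6. The mean log2 level of the cardiomyocyte markers ran from 3.27 to 5.39 over these samples, against 4.83 to 5.35 for stretch in session 1. When sessions 2 and 3 were treated as 1 set, so that these samples met the session 3 controls, Pgam2 and Pfkfb2 were called lower with stretch (log2 -1.51 ± 0.43 and -0.75 ± 0.22, adjusted p = 0.0374 and 0.0405, limma), where 8.83% of all genes were called and 3.72% were called lower. Stretch and scan session cannot be told apart in that contrast, and both genes differed by less within session 1 (-0.25 ± 0.49 and -0.44 ± 0.31).

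Stretch with BIRB796 and stretch alone were never scanned in 1 session. Set against each other through their own controls, 33 members were lower with the inhibitor and 2 higher, by a median of -0.30 (-0.03 over all genes, 54.2% lower). None of the members and 0% of all genes were called by limma, with 564 genes at an unadjusted p under 0.05. Slc16a3 (-1.19 ± 0.38) and Egln3 (-1.03 ± 0.35) had the smallest p-values, both with an adjusted p of 1.00. The response to stretch with BIRB796 minus that without it had a median of -0.11 over the members, 29 of them negative (57.4% of all genes were), and none was called, with 0% of all genes called and 303 at an unadjusted p under 0.05. Slc16a3 (-0.87 ± 0.38, interval -1.68 to -0.06) and Pfkp (-0.51 ± 0.30) came first. Both medians changed sign where session 2 was set against session 3: that of both treatments against stretch was 0.04 and that of the interaction 0.11 with sessions 2 and 3 as 1 set, and the interaction was 0.08 without the session term.

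**Figure D5:**
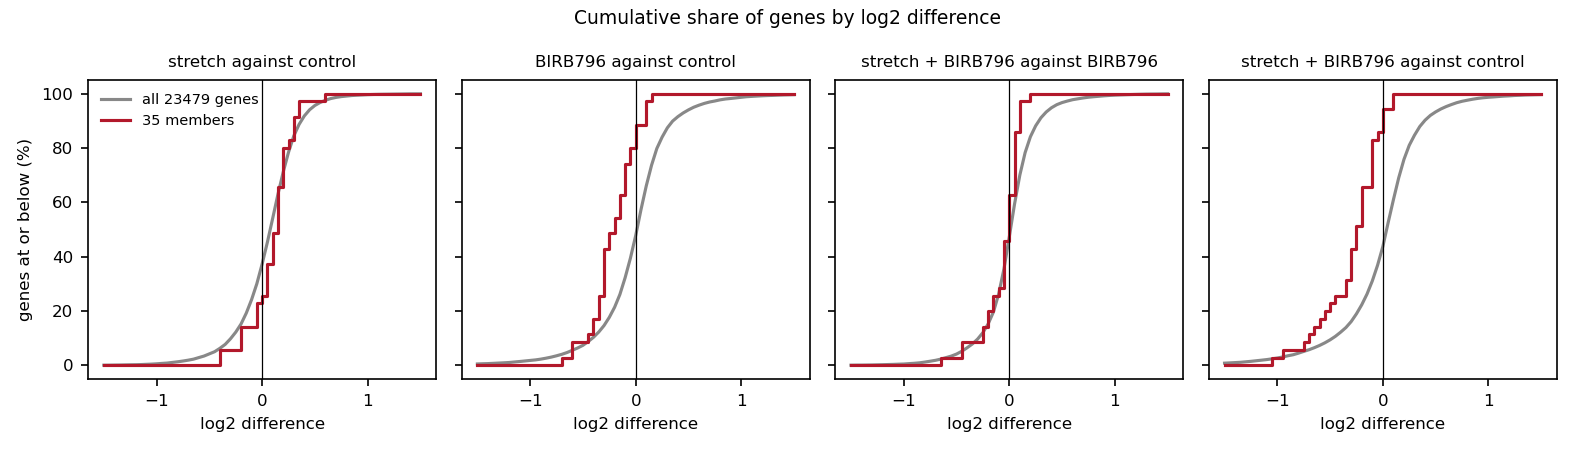
Cumulative share of genes (vertical axis, percent) at or below each log2 difference (horizontal axis) for all 23479 genes in grey and the 35 members in red, in 4 comparisons. The red line lies left of the grey for BIRB796 and for stretch with BIRB796 against control (medians -0.22 and -0.25) and close to it for stretch against control (0.11 against 0.08).

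Other genes of these pathways were taken from 6 lists of 94 names, of which 92 were on the array and 91 passed the filter. None was called in the fit on all samples. In session 3 alone, of 90 tested, 8 fell with stretch and BIRB796 and 1 rose, where 4.53% of all genes fell and 3.13% rose. With BIRB796 alone 1 fell and 1 rose. Of the 8, 5 were among 31 further HIF targets, of which 24 were lower with both treatments (median -0.20), beside Fbp2 of gluconeogenesis, Pygl of glycogen breakdown and the kinase Pdk2.

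Ak4, a mitochondrial adenylate kinase induced by HIF, read -1.90 to -1.34 in the session 3 controls and -3.36 to -2.77 with both treatments, 2.74-fold lower with no overlap (log2 -1.45 ± 0.25, adjusted p = 0.0146, limma). Fbp2, the muscle fructose bisphosphatase, had a dim probe, at -5.37 to -5.19 in those controls and -6.53 to -5.77 with both treatments. Its level was 1.73-fold lower (-0.79 ± 0.14, adjusted p = 0.0156, limma), and that of the VEGF receptor Kdr 1.78-fold lower (-0.83 ± 0.17, adjusted p = 0.0218, limma). Kdr is also one of the endothelial markers that fell. Plod2, a HIF target that hydroxylates collagen, went the other way: it read 2.73 to 2.94 in the controls, 3.56 to 3.87 with BIRB796 and 3.36 to 4.04 with both. It rose 1.76-fold with BIRB796 and 1.66-fold with both (adjusted p = 0.0299 and 0.0198, limma, session 3 alone). Pygl, the liver glycogen phosphorylase, fell 1.79-fold with BIRB796 (-0.84 ± 0.17, adjusted p = 0.0421, limma). It too was dim, at -3.83 to -3.16 in the controls and -4.53 to -4.07 with BIRB796.

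The remaining lists stood nearer to 0. The 9 genes of the HIF machinery were higher in 8 cases with both treatments (median 0.14), the 6 pentose phosphate genes had a median of 0.06, the 19 other glycolysis and gluconeogenesis genes of 0.09, the 12 pyruvate dehydrogenase genes of -0.08 and the 14 glycogen genes of -0.14. None of the HIF machinery or pentose phosphate genes was called.

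Among the probes, the array's design (rat build rn4) placed that of Pgam1 at chr10:110469834-110469894, while RefSeq has the gene on chromosome 1, and gave no position for that of Hk1. Gapdh, Eno1, Pgam1 and other glycolytic genes have processed pseudogenes, so these probes may share signal with copies. Those of the 7 members called lower lay at chr5:139718779-139718838 (Slc2a1), chr10:56786861-56786920 (Slc2a4), chr10:64308833-64308892 (Aldoc), chr14:86466146-86466205 (Pgam2), chr10:57542200-57542259 (Eno3), chr10:110163119-110163178 (Slc16a3) and chr6:74451958-74452017 (Egln3). Each had 1 probe, except Aldoc, whose second probe differed from control by -0.72 ± 0.33 with BIRB796.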

How the data were processed

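Each tissue's Cy3-labelled total RNA was read on an Agilent rat array of 1 colour (22 arrays, 21 samples after stretch replicates 4 and 5 were averaged). Per the file headers, the deposited intensity is gProcessedSignal of Agilent Feature Extraction, background-subtracted, in linear units. The authors' deposited log2 table holds the same arrays relative to a baseline per probe that is unknown, and was used as an alternative. The processing was otherwise not given in the sources used here.

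Control spots and outlier flags were dropped, log2 signals averaged per probe, and each array centred on its 75th percentile. A probe had to be well above background on 4 or more arrays, and the probe of highest mean stood for its gene. limma 3.58.1 in R 4.3.3 fitted the 4 groups with a scan session term. P-values were adjusted (Benjamini-Hochberg) over 23479 genes, or 23294 in session 3 alone. Scripts were tested on simulated data. There the fit on all samples called 29% of log2 changes of 1 put into stretch, 41.5% into BIRB796 and 50% into both. For changes of 2 these shares were 73%, 80.5% and 81.5%, so true changes can go uncalled. The number of arrays limits precision.

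The members and all gene lists were chosen with earlier results of these data known. Genes named are the members called in any comparison, the 2 with the smallest p where fewer were called, and of other pathway genes up to 3 called per direction with the smallest p. Further members are given to complete each role, chosen with their values known.

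In session 1 control and stretch replicates of 1 number shared a slide, and their deviations correlated (r = 0.506, 0.148 and 0.570). Slide and number coincide there, so a pairing by number cannot be told from a shared slide. Alternatives were another scaling, normexp, other filters, probe averages, slide and replicate blocks, the session term, the deposited table and each sample left out. The alternatives of the session 3 fit and the fit without session 2 were chosen after seeing the data.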

Additional observations from a re-analysis of the deposited data

Results flagged for a closer look

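Of 140 groups of member levels (35 members in 4 groups), 19 held 1 sample set apart from the rest of its group by Dixon's criterion, where chance gives about 1 in 20. The control and stretch groups pool scan sessions, and no explanation was tested. Among the controls, replicate 2 stood apart for Slc2a4 (1.12), and replicate 3 for Gpi (3.53), Ldha (6.05) and Vegfa (2.11). Among the stretched samples, replicate 6 was low for Aldoc (1.42), Ldhb (4.30), Slc16a3 (2.11) and Vegfa (1.82). Replicate 7 was high for Aldoa (6.41), Gapdh (7.04), Pgam1 (7.41), Pkm (6.03) and Adm (4.65), and low for Ndrg1 (-3.24). The array of stretch replicate 7 was the dimmest, with a 75th percentile of 509.6 and 65.51% of probes well above background. It differed from the other stretch arrays by 10.62 to 13.32 times the spot noise. With BIRB796, replicate 2 stood apart for Pgk1 (6.32) and replicate 3 for Eno3 (2.12) and Hif1a (-2.34). With both treatments, replicate 3 stood apart for Hk1 (1.44) and replicate 1 for Pfkl (-0.22). All values are log2 levels above the 75th percentile.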

How the results depend on the processing

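The number of members called rested on the samples fitted. In the fit on all samples, stretch against control had 2 with sessions 2 and 3 as 1 set, BIRB796 against control 2 with its session alone, and both treatments against control 7 with its session alone and 3 without session 2. The share of all genes called without session 2 is not given here. Leaving out 1 sample gave 0 to 1 for both treatments against control (1 without stretch replicate 6) and 0 to 0 otherwise. With a replicate block, 0 members were called for stretch against control and 0 for both treatments against BIRB796. The other comparisons shared fewer than 2 numbers within a session. Arrays of 1 number in the BIRB796 groups correlated little beyond replicate 1 (r = 0.530, 0.0147, 0.0854 and 0.0757). In session 3 alone, BIRB796 against control gave 1 member with slide as a random block, 1 with the array median, 8 with normexp, 1 without the filter and 0 with controls 5 and 6 averaged. Calls over all genes, 233 higher and 227 lower at first, were 35 and 23 with the block and 281 and 126 with the median. They were 505 and 590 with normexp, 152 and 155 without the filter and 0 with those controls averaged. Both treatments against control gave 16 with normexp, 12 with detection on all arrays, 13 with a variance trend and 0 with those controls averaged. Calls over all genes moved with them, from 730 higher and 1055 lower of 23294 to 1297 and 1437 with normexp. They were 1107 and 1171 of 16289 with detection on all arrays and 1183 and 1525 of 23294 with the trend. Leaving out samples gave 0 to 5 for BIRB796 against control (0 without control 4, 5 or 6 or BIRB796 1, 2 or 4, and 5 without control 7), 0 to 12 for both against control and 0 to 0 for both against BIRB796. With samples left out, genes called for both against control ran from 34 higher with 72 lower (without control 5) to 1871 with 1915 (without control 7). Over the other settings they ran between 57 higher with 129 lower (controls 5 and 6 averaged) and 1297 with 1437 (normexp). For BIRB796 against control they ran from 0 (without control 4, 5 or 6) to 1085 higher with 1247 lower (without control 7). Bnip3 with stretch reversed from 0.33 to -0.50 without the session term and to -0.49 with sessions 2 and 3 as 1 set. The members' median with stretch, 0.11, ran from -0.18 to 0.18 over all settings, that of both treatments against stretch from -0.36 to 0.04 and that of the interaction from -0.23 to 0.11. With sessions kept apart these were -0.06 to 0.18, -0.36 to -0.20 and -0.23 to -0.05. The cause was not tested.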
